A study of Homo sapiens with 8 samples.

Results

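The genes described are 10 members of the heterogeneous nuclear ribonucleoprotein (hnRNP) family, HNRNPA1, HNRNPA2B1, HNRNPC, HNRNPD, HNRNPDL, HNRNPH1, HNRNPH3, HNRNPK, HNRNPM and HNRNPR. All splicing choices listed under these gene names were taken, whatever their values. They came to 174 local splicing variations (LSVs, the junctions of 1 exon counted together, either those leaving it or those entering it) of 91480 without PMA and to 170 of 91729 with PMA. Of these, 169 stood in both tables, among 87517 shared LSVs. The 10 genes were among 10965 listed without and 11039 listed with PMA. Each gene had between 9 and 31 LSVs in a table, and together they held 277 junctions and 56 introns listed as retained.

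The cells were JSL1, a monoclonal T cell line derived from Jurkat, and the study's title asks for the transcripts that the splicing regulator CELF2 acts on in T cells. Polyadenylated RNA was sequenced from 4 groups of 2 libraries, 8 in all: untreated control cells, untreated cells depleted of CELF2, control cells given PMA and depleted cells given PMA. PMA, a phorbol ester that switches on protein kinase C and mimics part of T cell activation, was used at 20 ng/mL for 48 hours. Depletion came from lentiviral short hairpin RNAs that integrate stably and are induced by doxycycline, and the labels do not say whether control cells carried a control hairpin or received the drug. All groups share 1 clonal line, and no label says whether paired libraries were grown as separate cultures.

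The authors pooled both libraries of a group, so every share given here is 1 value per group with no spread, and the number of reads behind it is unknown. The posterior probability in the authors' deposited table, that a share changed by at least 20 percentage points, is the measure of error used. An LSV was called when it reached 0.95 for any junction. The tables hold no expression levels, so the loss of CELF2 and the amounts of the hnRNP transcripts were not measured here. Of 10 T cell marker genes 8 had a listed LSV, against 1 of 5 B cell, 0 of 5 myeloid and 0 of 4 epithelial markers, where a gene is listed only if its splicing was quantified.

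The hnRNPs bind nascent transcripts through RNA recognition motifs or KH domains, package them, and act on splicing, export, stability and translation. Many also splice their own transcripts, or those of relatives, into forms with an early stop codon or a spliced 3′ untranslated region (UTR) that nonsense-mediated decay removes. Several make protein isoforms by small choices within the coding region, such as the C1 and C2 forms of HNRNPC, the A2 and B1 forms of HNRNPA2B1 and the forms of HNRNPD known as AUF1.

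Coding sequences of the choices described most fully are shown first. For HNRNPC, HNRNPM, HNRNPD and HNRNPA2B1 they say what the choice adds to or takes from the protein. For HNRNPK only the exons on both sides of an intron are printed, not the intron that the choice removes or keeps. They were read from GENCODE 29 transcripts, matched to the deposited junctions by gene and by intron or exon length, and are written 5′ to 3′ on the transcript strand. Coordinates are those of the deposited tables in hg19. In HNRNPC, on the minus strand, capitals mark the 39 nucleotides at chr14:21699117-21699155 between 2 donor sites of an exon, whose 13 codons make the difference between C2, which holds them, and C1. In HNRNPM, on the plus strand, capitals mark the 117 nucleotides at chr19:8530247-8530363 that a junction can remove from within a 192-nucleotide exon, 39 codons between the first RNA recognition motif and the next. In HNRNPK, on the minus strand, the exon before an intron is in lower case and the exon after it in capitals, and the 77-nucleotide intron between them, chr9:86585735-86585811, lies in the coding region just ahead of the last KH domain. In HNRNPD, on the minus strand, the exon in capitals at chr4:83292681-83292737 is the early cassette exon of AUF1. In HNRNPA2B1, on the minus strand, the exon in capitals at chr7:26237451-26237486 is the one that makes B1.
HNRNPC: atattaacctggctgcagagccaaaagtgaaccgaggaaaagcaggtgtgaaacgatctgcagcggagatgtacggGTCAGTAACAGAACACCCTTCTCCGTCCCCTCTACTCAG
HNRNPM: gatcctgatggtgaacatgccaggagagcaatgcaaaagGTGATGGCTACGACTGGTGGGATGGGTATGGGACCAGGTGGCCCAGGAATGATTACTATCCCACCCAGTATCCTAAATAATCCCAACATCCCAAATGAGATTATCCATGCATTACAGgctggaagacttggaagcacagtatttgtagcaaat
HNRNPK: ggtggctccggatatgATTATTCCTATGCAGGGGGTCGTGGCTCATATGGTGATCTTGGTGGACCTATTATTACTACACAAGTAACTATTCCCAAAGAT
HNRNPD: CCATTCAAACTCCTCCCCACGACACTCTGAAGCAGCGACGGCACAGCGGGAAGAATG
HNRNPA2B1: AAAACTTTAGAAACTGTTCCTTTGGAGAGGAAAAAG
The lengths of the HNRNPC, HNRNPM, HNRNPD and HNRNPA2B1 stretches in capitals are whole numbers of codons. The HNRNPK exons of 16 and 83 nucleotides only keep the frame together, and the 77 nucleotides of the intron between them are not a whole number of codons.

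On depletion of CELF2, splicing changed in 4 of the 10 genes in cells given PMA, HNRNPC, HNRNPK, HNRNPDL and HNRNPA1, and no change was called without PMA. By the authors' deposited table, 5 of the 170 LSVs (2.94%) were called with PMA, beside 1.87% of all LSVs. The share of genes with a called LSV was 10.6% over all genes and 16.2% over genes with between 9 and 31 LSVs. Without PMA 0 of the 174 LSVs were called, beside 0.985% of all LSVs, 6.2% of all genes and 9.09% of genes with as many LSVs. The highest posterior probability without PMA in the authors' deposited table was 0.877, in HNRNPA1. The 5 called LSVs are too few to set these genes apart from the background, and the difference between the states was not tested.

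Most choices in these genes moved little. The expected change in the authors' deposited table, a value shrunken toward 0 by their model, was under 1 point for every junction in 121 LSVs without and 100 LSVs with PMA. It reached 10 points in 10 LSVs (5.75%) of 5 genes without PMA, beside 6.29% of all LSVs, and in 22 LSVs (12.9%) of 8 genes with PMA, beside 9.33%. The median of the largest expected change per LSV in the authors' deposited table was 0.0721 points without and 0.103 points with PMA, against 0.00735 and 0.0168 over all LSVs.

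**Figure D1:**
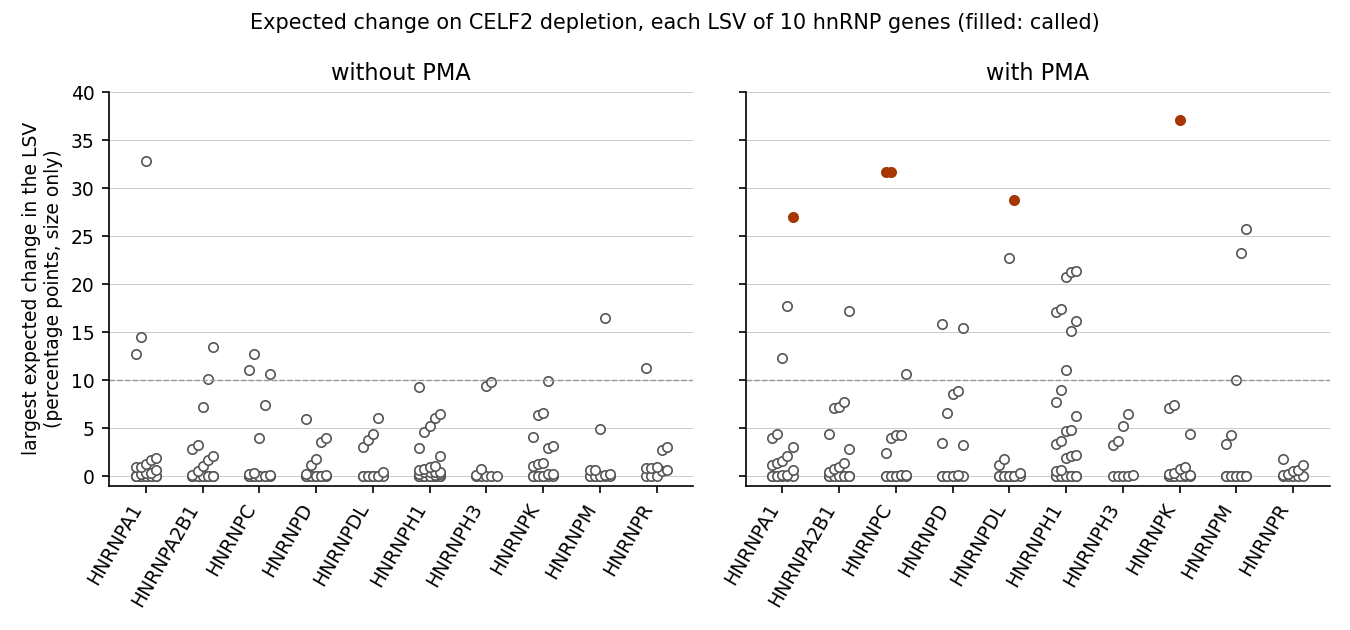
Largest expected change (percentage points, without sign) in each LSV of the 10 genes in the authors' deposited table, without PMA on the left and with PMA on the right. Each point is 1 LSV, filled points were called at a posterior probability of 0.95, and the dashed line marks 10 points. The 5 called LSVs lie at 27.0 points or above, all with PMA, while most points lie near 0.

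HNRNPC, which binds uridine tracts as a tetramer and packages nascent RNA, changed the choice between its C1 and C2 forms. The donor that keeps the 13-codon segment, joined by chr14:21698525-21699117, held 39.2% of the LSV leaving its exon in control and 51.9% in depleted cells without PMA. With PMA its shares were 19.2% for control and 50.1% for depleted cells. In the LSV of the next exon, which counts the same junction against what enters that exon, the 4 shares were 40.7%, 52.2%, 19.5% and 50.4% in the same order. Both depleted groups and the untreated control group therefore lay between 39.2% and 52.2%, and the control group given PMA lay apart at 19.2% and 19.5%. The expected change in the authors' deposited table was 31.7 points with PMA in both LSVs, at posterior probabilities of 0.999 or higher. Without PMA it was 12.7 and 11.1 points, at a posterior probability of 0.171 for the second, and was not called. The alternative donor, chr14:21698525-21699156, which leaves the segment out, made up nearly all of the rest, with 60.4%, 47.9%, 80.8% and 49.9% in the first of these LSVs.

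HNRNPA1, which acts on splice site choice through 2 RNA recognition motifs at its N-terminal end, skipped a coding exon more often in depleted cells given PMA. The skipping junction, chr12:54674606-54675579, is not an intron of any GENCODE 29 transcript of the gene. Among junctions entering the exon after it, skipping had a share of 7.4% in control and 13.8% in depleted cells without PMA, and of 4.6% and 31.0% with PMA. The expected change in the authors' deposited table was 27.0 points with PMA, at a posterior probability of 0.955, and 1.0 point without PMA. Seen from the exon before it, the same junction had 2.5%, 6.2%, 2.6% and 19.9%. There the authors' deposited table gave an expected change of 17.7 points with PMA at a posterior probability of 0.456, so the call rests on 1 of the 2 LSVs that hold the junction. The exon that follows, of 147 nucleotides, was skipped with mean shares of 4.2% and 8.5% without PMA and 3.4% and 10.2% with it.

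Further choices of HNRNPA1 were singled out after their values were seen. An intron of 93 nucleotides in the body of the gene, chr12:54676085-54676177, was retained with 62.0% in control and 27.5% in depleted cells without PMA. That is an expected change of -32.8 points in the authors' deposited table at a posterior probability of 0.877, the largest of any LSV of the 10 genes without PMA. The LSV did not appear in the table with PMA. A 156-nucleotide exon, which distinguishes the longer A1 form, was joined from the exon before it with 19.4% and 22.6% without and 22.4% and 25.7% with PMA. At the 3′ end, a junction of 2344 nucleotides, chr12:54678101-54680446, which GENCODE 29 holds only in a transcript marked for nonsense-mediated decay, had 28.3% and 43.2% without and 31.2% and 44.5% with PMA. Its posterior probabilities in the authors' deposited table were 0.334 and 0.241, so neither difference was called. In the LSV of the exon it enters, the same junction had 47.9% and 61.8% without and 56.7% and 62.7% with PMA. There the expected changes in the authors' deposited table were 12.7 and 2.6 points, at posterior probabilities of 0.257 and 0.0157.

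HNRNPA2B1, a close relative that also sorts RNA into granules and vesicles, had no called LSV. In the LSV of its last exon, the junction chr7:26230080-26230613 held 67.2% and 68.8% without PMA and 52.3% and 43.3% with PMA, control before depleted. The difference between states was 25.5 points in depleted cells, the only one of at least 20 points among the 169 LSVs in these cells. Counted from the exon before it, the junction had 64.0% and 72.4% without and 57.7% and 54.7% with PMA. A junction that GENCODE 29 does not hold, chr7:26230080-26232115, had 7.1%, 8.0% and 6.3% in 3 groups and 23.1% in depleted cells given PMA. Its posterior probability in the authors' deposited table was 0.339, below the calling level. Counted from the exon before it, the same junction had 2.5% in those 3 groups and 3.9% in depleted cells given PMA. The B1 exon of 36 nucleotides was skipped by 87.6%, 83.8%, 90.0% and 90.3% of the LSV leaving the exon before it, so the 4 groups lay between 83.8% and 90.3%.

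HNRNPDL and HNRNPD bind AU-rich elements and act on the stability of the transcripts that carry them. HNRNPDL spliced its 3′ UTR differently in depleted cells given PMA. The direct junction to the last exon, chr4:83346036-83347190, removes 1153 nucleotides and is the form of the coding transcripts in GENCODE 29. It had 50.4% in control and 56.8% in depleted cells without PMA, and 27.8% and 55.9% with PMA, among all that enters the last exon. The expected change in the authors' deposited table was 28.8 points with PMA at a posterior probability of 0.980, and 4.0 points without PMA. In the LSV leaving the exon before it the 4 shares were lower, 35.0%, 37.1%, 16.8% and 39.0%, and the posterior probability with PMA was 0.830 in the authors' deposited table. Here too the control group given PMA was the lowest of the 4 in both LSVs.

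Among all that enters the last exon, an extra 3′ UTR exon and a retained intron stood in place of the direct HNRNPDL junction. The exon, of 105 nucleotides at chr4:83346716-83346820, occurs in GENCODE 29 only in transcripts marked for nonsense-mediated decay. Its junction to the last exon had 16.3% and 18.2% without PMA and 27.5% and 15.9% with PMA. As means over 2 LSVs this junction had 17.2% and 21.8% without and 26.2% and 18.1% with PMA. The junction into the extra exon, chr4:83346820-83347190, had mean shares of 24.6% and 29.5% without and 40.4% and 37.1% with PMA. By these means control and depleted cells given PMA differed less at the junction into the extra exon. The intron after the extra exon, chr4:83346037-83346715, was retained with 33.5% and 25.0% without and 44.7% and 28.3% with PMA among all that enters the last exon. Counted from the extra exon instead, the same intron had 81.8% and 74.7% without and 75.0% and 79.6% with PMA, so the order with PMA was not the same. In the first count, neither reached a posterior probability of 0.95 on its own in the authors' deposited table, where the values with PMA were 0.0473 and 0.423.

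HNRNPD, the source of the AUF1 proteins, had no called LSV. The largest expected change with PMA in the authors' deposited table, 15.8 points at a posterior probability of 0.312, was at the splice to its last exon. That junction, chr4:83275307-83276457, had 94.0% and 92.6% without PMA and 76.0% and 91.5% with PMA. In the same LSV the intron beside the last exon was retained with 5.1%, 7.0%, 20.6% and 7.4%. As means over the 2 LSVs that list it, this intron had 49.9%, 49.9%, 50.2% and 42.7%. The 2 LSVs lay up to 89.6 points apart, so its level depended on the exon from which it was counted. The largest expected change without PMA, 5.9 points in the authors' deposited table, was at the late cassette exon of 147 nucleotides, whose inclusion junction had 37.3% and 43.9% without and 43.4% and 39.5% with PMA. The early cassette exon of 57 nucleotides, chosen after its values were seen, was skipped with 20.7% and 15.6% without and 35.0% and 19.8% with PMA in the LSV of the exon before it. In the LSV of the exon after it skipping had 11.0%, 8.6%, 19.9% and 11.1%. The highest of the 4 values was in control cells given PMA in both LSVs, and the posterior probability of the depletion difference there was 0.335 and 0.0291 in the authors' deposited table.

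**Figure D2:**
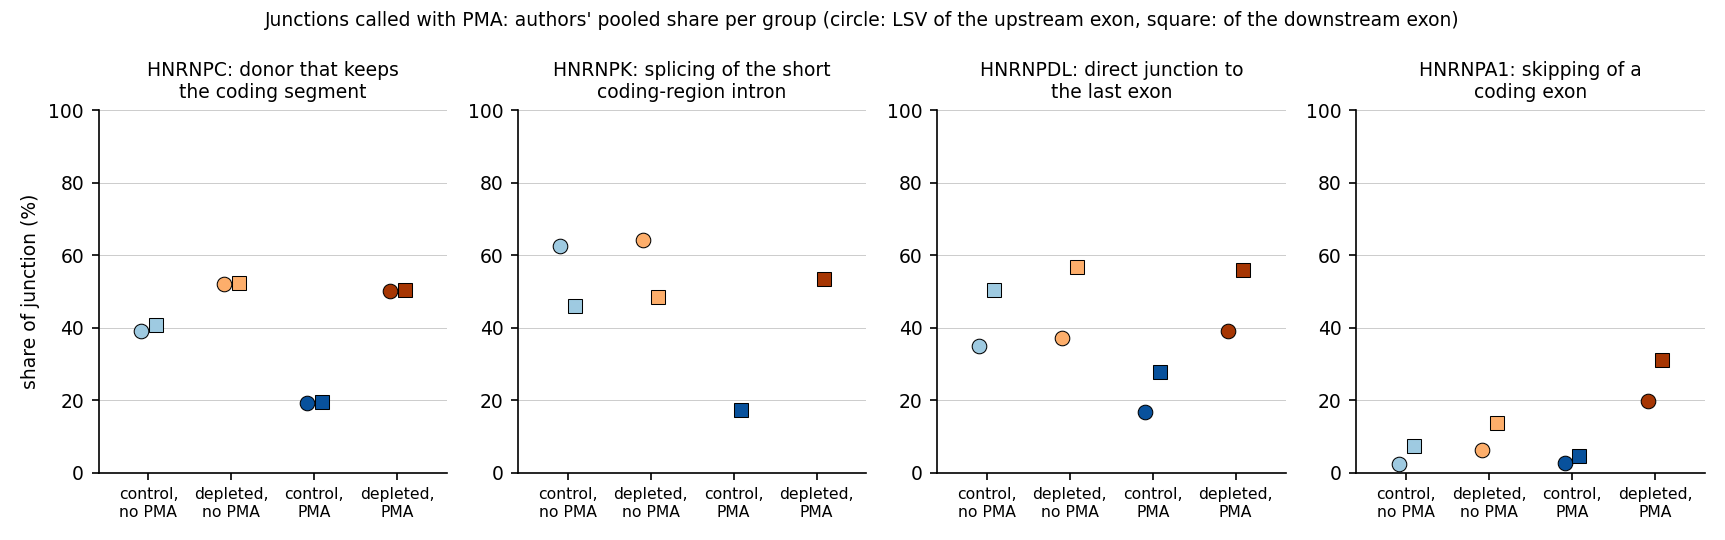
Share of the junction called with PMA (percent of its LSV) in HNRNPC, HNRNPK, HNRNPDL and HNRNPA1 in the 4 groups, with circles for the LSV of the upstream exon and squares for that of the downstream exon. Points are the authors' pooled values and have no error, and the upstream HNRNPK LSV is listed without PMA only. In HNRNPC, HNRNPK and HNRNPDL control cells given PMA lie lowest, while in HNRNPA1 depleted cells given PMA lie highest, at 19.9% and 31.0%.

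HNRNPK, a poly(C)-binding protein with KH domains, spliced the 77-nucleotide intron shown above more often in depleted than in control cells given PMA. In the LSV of the exon after the intron, the junction that removes exactly these 77 nucleotides had 46.1% in control and 48.4% in depleted cells without PMA. With PMA it had 17.2% and 53.4%. Another junction of this LSV, chr9:86585719-86585812, also removes the intron, with an acceptor 15 nucleotides further on. It had 17.8% and 9.1% without and 9.3% and 8.6% with PMA, so without PMA these junctions went opposite ways on depletion. Retention of the intron had 36.1% and 42.4% without PMA and 73.5% and 38.0% with PMA. The expected changes with PMA in the authors' deposited table were 37.1 points for the junction of exactly 77 nucleotides and -36.3 points for retention. Their posterior probabilities were 0.999 and 0.998. Without PMA the expected changes were 0.1 and 0.5 points. From the exon before it the intron was listed without PMA alone, with retention at 13.1% and 24.0%, so its level depended on the exon from which it was counted, and the called change could not be checked from that side.

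In its last coding exons HNRNPK chooses between acceptors 60 nucleotides apart, a choice singled out after its values were seen. The junction that leaves out the 60 nucleotides, chr9:86584295-86585077, had 27.1% and 20.1% without and 24.6% and 18.3% with PMA in the LSV of the exon before it. It had 46.5% and 35.9% without and 41.3% and 32.4% with PMA in the LSV of the last exon. The depleted cells were lower in both states and both LSVs, but the largest expected change in the authors' deposited table was -9.9 points, at a posterior probability of 0.147. The 72-nucleotide cassette exon of the gene was included with mean shares of 92.3% and 96.1% without and 92.5% and 92.2% with PMA.

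HNRNPH1 and HNRNPH3 bind runs of guanosines and act on exon inclusion and polyadenylation. In HNRNPH1 no LSV was called, and its introns had lower shares in depleted than in control cells given PMA. As means over the LSVs that list an intron, 12 of 15 were lower and 0 higher in depleted cells with PMA, with mean differences between -20.1 and 0.0 points. For some of these introns the 2 LSVs lay far apart, by up to 95.0 points, so the mean is not a level of retention. Read in each LSV, 9 of the 15 were lower in every LSV and 0 were higher in any. A mean lower by at least 10 points was found for 4 introns, but only 2 were that much lower in every LSV that lists them, both listed in 1 LSV alone. Without PMA 9 means were lower and 3 higher, between -7.9 and 1.0 points, and 5 introns were lower in every LSV. Introns of 1 gene share its transcripts, so they are not separate observations of the cells. By the same means with PMA, HNRNPA2B1 had 5 of 7 introns lower and 0 higher, HNRNPD 3 of 4 and 0, and HNRNPDL 3 of 5 and 0. HNRNPK had 3 of 6 lower and 2 higher, and HNRNPA1 had 1 of 8 lower and 6 higher. The share of all introns lower by any amount was not counted, so no background stands beside these directions.

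Single introns of HNRNPH1 show the sizes. The 206-nucleotide intron at chr5:179048037-179048242 was retained with 23.7% and 15.8% without and 32.4% and 12.3% with PMA. The 61-nucleotide intron at chr5:179046409-179046469 had 23.6% and 22.1% without and 33.6% and 16.9% with PMA. In both, control cells given PMA were highest and depleted cells given PMA lowest. The largest expected change with PMA was that of the junction chr5:179046408-179047893, spliced with 63.8% in control and 84.7% in depleted cells, for which the authors' deposited table gave 21.4 points and a posterior probability of 0.801. Without PMA it had 76.9% and 79.8%. The largest expected change without PMA was 9.3 points in the authors' deposited table, for a junction that skips an exon near the 3′ end, chr5:179043219-179044022, with 7.6% and 16.9% without and 7.0% and 13.4% with PMA.

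HNRNPH3 had posterior probabilities of at most 0.0575 without and 0.00204 with PMA in the authors' deposited table. Its exon with donors 45 nucleotides apart used the upstream donor, chr10:70098399-70098897, with 43.2% and 32.4% without and 29.3% and 35.4% with PMA, so the order of control and depleted cells was opposite in the 2 states. The authors' deposited table gave expected changes of -9.8 and 3.2 points for it. The 139-nucleotide exon of HNRNPH3 was included, by its upstream junction, with 88.2% and 87.5% without and 84.8% and 92.3% with PMA.

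HNRNPM, which acts on alternative splicing through GU-rich sites, showed the largest difference that was not called with PMA. The junction that removes the 39 codons shown above, chr19:8530246-8530364, had 66.3% in control and 50.1% in depleted cells without PMA, and 69.2% and 44.1% with PMA, among all that enters the exon part after it. From the exon part before it the 4 shares were 69.0%, 63.4%, 75.7% and 52.9%. The share was thus lower in depleted cells in both states and both LSVs. The expected changes in the authors' deposited table were -16.5 and -25.7 points in the downstream LSV, at posterior probabilities of 0.424 without and 0.911 with PMA, and the second lies just under the level that calls. The tables list the reads that keep the stretch as a retained intron of 107 nucleotides within it, with 33.5%, 49.6%, 30.7% and 55.8%. GENCODE 29, by contrast, has the whole stretch as coding sequence in 3 transcripts. The 54-nucleotide exon of HNRNPM was skipped with 17.7% and 18.3% without and 17.8% and 17.7% with PMA.

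HNRNPR, a relative of SYNCRIP with 3 RNA recognition motifs, had its largest expected changes at acceptors 3 nucleotides apart in the 5′ UTR. The upstream of these, chr1:23667513-23670704, had 28.8% and 43.4% without and 26.6% and 31.8% with PMA. For the expected change without PMA the authors' deposited table gave 11.3 points and a posterior probability of 0.259, and with PMA no junction of the LSV passed 1.8 points. Its coding exons of 114 and 177 nucleotides were included with means between 89.5% and 95.8% in the 4 groups.

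**Figure D3:**
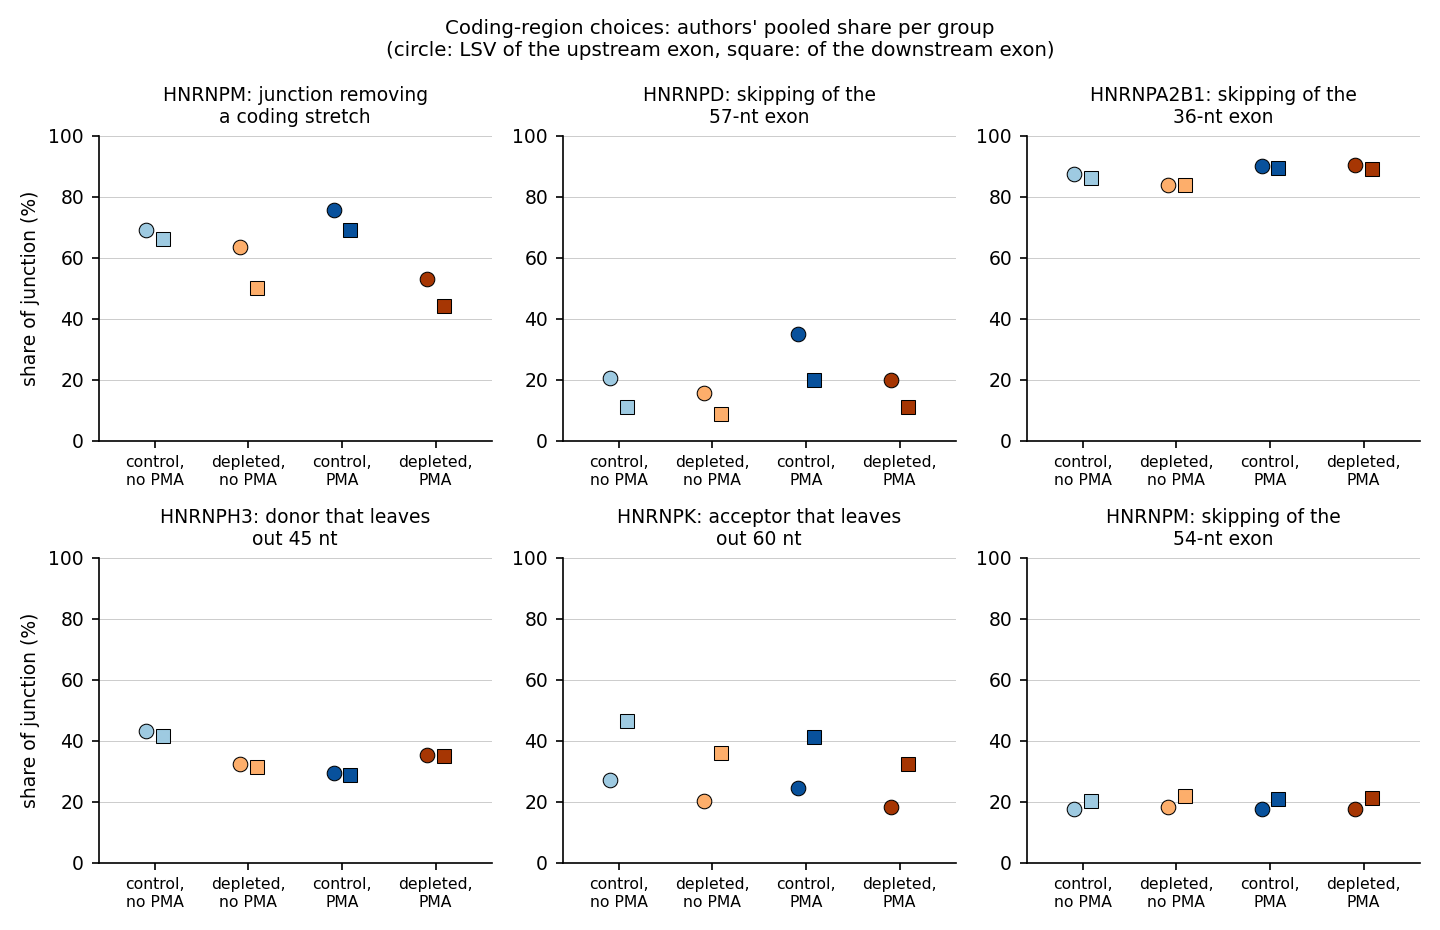
Shares (percent of the LSV) of 6 coding-region choices in the 4 groups, with circles for the LSV of the upstream exon and squares for that of the downstream exon. The points are the authors' pooled values without error. The junction removing the HNRNPM stretch has lower shares in depleted cells in both states, the HNRNPD exon is skipped most in control cells given PMA, and the HNRNPM exon of 54 nucleotides lies near 20% in every group. None of the 6 was called.

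Between untreated and PMA-treated cells, 4 LSVs of 3 genes differed by at least 20 points in control cells, which is 2.37% of the 169, beside 2.58% of all LSVs. These were both HNRNPC LSVs, the HNRNPK intron and the HNRNPDL 3′ UTR, so 4 of the 5 LSVs called for depletion with PMA also differed between states in control cells. In depleted cells 1 LSV did, in HNRNPA2B1, which is 0.592% beside 1.86%. The values overlap by construction, since both comparisons use the control group given PMA, and the tables were quantified separately, so the difference between states has no error and was not tested. HNRNPA1 was the exception among the called, with control shares of 7.4% and 4.6% in the 2 states.

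Over all 10 genes, taking the mean over the LSVs that list an intron, 5 of 54 introns had a share lower in depleted cells given PMA by at least 10 points, 4 in HNRNPH1 and 1 in HNRNPK, beside 5.71% of all introns in the tables. One intron, in HNRNPM, was higher by as much, beside 6.72%. The median difference was -0.9 points against 0.0 over all introns. Without PMA 1 of 56 introns was lower and 3 were higher by 10 points, beside 3.13% and 5.24%. The 3 were in HNRNPC, HNRNPK and HNRNPM. The HNRNPM entry lies within the stretch described above and covers 107 of its 117 nucleotides. The HNRNPK entry is the other side of the choice between acceptors 60 nucleotides apart.

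**Figure D4:**
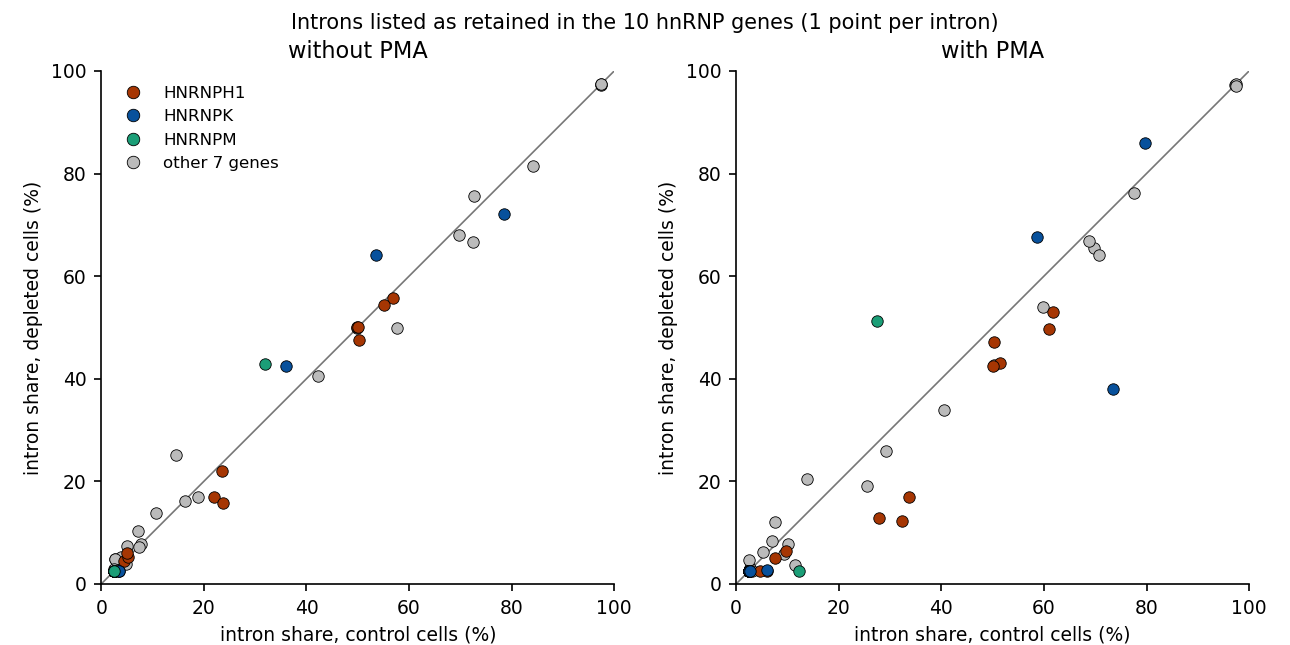
Share of each retained intron (percent of its LSV, mean over the LSVs that list it in both tables) in control cells on the x axis and depleted cells on the y axis, without PMA on the left and with PMA on the right. The line marks equal shares. With PMA the HNRNPH1 introns lie on or under the line and 1 of the HNRNPK introns lies far under it, at 73.5% and 38.0%. Some points, HNRNPH1 introns among them, are means of LSVs up to 95.0 points apart and do not show a level of retention.

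Of the 277 junctions, 188 matched an intron of the same gene and length in GENCODE 29, and 13 of these occur only in transcripts marked for nonsense-mediated decay. A mean share of 10% or more in any group was reached by 7 of the 13, in 5 genes. By the mean over LSVs, 6 of the 7 without PMA and 4 with PMA had a higher share in depleted cells, and 0 of the 7 were called. The share of all junctions higher in depleted cells was not counted, so no background stands beside these counts. The HNRNPD junctions among the 7 border the same 107-nucleotide exon, and the HNRNPDL junctions the same 105-nucleotide exon, so the 7 are not separate choices. Read in each LSV, 4 were higher in every LSV without PMA and 1 with PMA, and 3 went opposite ways in their LSVs with PMA. The HNRNPA2B1 junction chr7:26230748-26232115 is one of these. It had 27.1% and 40.6% without and 42.0% and 51.0% with PMA in one LSV, but 4.0% and 7.1% without and 9.7% and 7.3% with PMA in the other. The other 6 of the 13 had mean shares at or under 5.5% in every group. Shares of transcripts subject to decay also depend on how fast they are removed, and this was not measured.

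A list of 23 names of other hnRNP and related RNA-binding genes was chosen with earlier results of these data known. It holds HNRNPLL also under its older symbol HNRPLL. Of these, 19 had a listed LSV, and 1 had a called LSV without PMA (5.26%, beside 6.2% of all genes) and 6 with PMA. The 6 (31.6% of the 19, beside 10.6% of all genes) were CIRBP, HNRNPL, MATR3, PTBP2, RBMX and TARDBP. Of 10 genes of nonsense-mediated decay, all listed, 1 was called in each state, UPF2 without PMA, beside 6.2% of all genes, and UPF3A with PMA, beside 10.6%.

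Processed copies exist for several of these genes, HNRNPA1, HNRNPC and HNRNPK among them, and the sources used here do not say how reads that fit several copies were counted. No junction of the 10 genes was listed under another gene, but that cannot show whether reads were placed on copies at other positions.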

How the data were processed

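Strand-specific libraries of polyadenylated RNA were made by the authors with a TruSeq stranded kit, per the labels' protocols. STAR 2.5.1b and hg19 are named in the submitters' processing notes. The authors deposited 2 tables, 1 per state. Per the file headers these give, for each junction of an LSV, the expected share (as a fraction) in the pooled control and pooled depleted libraries, the expected change, and the posterior probability that it reaches 20 points. The headers match VOILA, which reports MAJIQ results. The sources used here name no version, annotation or read filter for it. Shares were multiplied by 100 and ran from 2.5% to 97.5%. Counts, library depths and errors per library are not analysed here, and 0 columns of per-sample values were left unused.

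All tables were read with Python 3.11.15 and drawn with matplotlib 3.10.9, and the parser and call rule were tested on simulated data. LSVs were called from a posterior probability of 0.95 upward. This probability is the authors' own, unlike a p-value, with no adjustment for how many LSVs were read, and no test was added. Differences between states are of group shares. Counts over introns and over junctions of decay transcripts use the mean over the LSVs that list each one, and other values are of 1 LSV unless a mean is named. The source or target side follows the LSV type, since on the minus strand the LSV identifiers run against the transcript. Junctions were matched to GENCODE 29, which uses another build, by gene and intron length alone: all 188 matches were to 1 intron, and 187 lay at their gene's common shift. Named were all 10 genes and, in each, every called LSV, every LSV that differed by 20 points between states, or else the LSV of largest expected change in each state. Other cassette exons, alternative sites and introns given with a gene were chosen after their values were seen. The members and lists were chosen with earlier results of these data known. The sequence of 1 exon is not reported here.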

Additional observations from a re-analysis of the deposited data

How the results depend on the processing

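No paired analysis was possible because the tables give 1 pooled value per group, and for the same reason leaving out single libraries was not run. Without PMA the count of called LSVs was 0 in 0 genes at posterior probabilities of 0.90, 0.95 and 0.99. It was 1 LSV in 1 gene for an expected change of at least 20 points and 10 in 5 genes for 10 points. With PMA the main counts were 5 LSVs in 4 genes. They were 6 in 5 genes at 0.90, 3 in 2 genes at 0.99, 11 in 6 genes for an expected change of 20 points and 22 in 8 genes for 10 points. Leaving out LSVs flagged for a de novo junction gave 0 in 0 genes, since all 5 called LSVs carry that flag. All LSVs with an intron carry it (100 of 100 in the 10 genes with PMA). The called HNRNPC and HNRNPA1 LSVs list no intron, so their flag has another source. Source LSVs alone gave 1 in 1 gene, target LSVs alone 4 in 4 genes and LSVs of 2 junctions 1 in 1 gene, as the HNRNPC, HNRNPK and HNRNPDL LSVs have 3 or 4 junctions. For differences between states in control cells the main count of 4 LSVs became 22 at 10 points, 1 at 30 points, 0 without de novo LSVs, 1 with source LSVs alone and 0 with 2 junctions. In depleted cells the main count of 1 became 14 at 10 points and 0 at 30 points, without de novo LSVs, with source LSVs alone and with 2 junctions. The called junctions of HNRNPC, HNRNPDL and HNRNPA1 kept their direction with PMA in both LSVs that hold them, and that of HNRNPK was listed in 1 LSV only. Over the 219 junctions and introns held by 2 LSVs, the difference between those LSVs had a median of 1.3 points in the share, with a highest value of 95.0 points, and a median of 0.2 points in the depletion difference with PMA, with a highest value of 21.0 points. A share is therefore tied to the exon it is counted from.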

Other observations

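Some 5′ UTR choices of the 10 genes have not been described yet, and they were picked after their values were seen. In HNRNPC an exon of the leader has donors 7 nucleotides apart. The donor of the junction chr14:21702388-21730753 had 17.4% and 13.7% in control and depleted cells without PMA and 10.2% and 22.3% with PMA. Its posterior probability with PMA was 0.0942 in the authors' deposited table, so the difference was not called. In HNRNPK the leader junction chr9:86593367-86595068 had 34.2% and 26.0% without and 30.8% and 28.4% with PMA. The leader of HNRNPH1 joined chr5:179050165-179050596 with 71.1% and 69.7% without and 62.3% and 72.2% with PMA, seen from the first exon. No leader LSV of the 10 genes was called in either state.

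Among the other RNA-binding genes, junctions of called LSVs with PMA differed as follows. In RBMX a junction had 73.4% in control and 33.5% in depleted cells, and in MATR3 a junction had 45.8% and 87.3%. In CIRBP the shares of a called junction were 32.1% and 62.5%, and in PTBP2 they were 2.6% and 35.7%. None of these was compared with the 10 genes by a test.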
